A study of Mus musculus with 8 samples.

Results

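Principal nuclei of the cortical collecting duct were selected from single-nucleus RNA-seq of mouse kidney by the UMIs (unique molecular identifiers, counted molecules) of 8 genes. A nucleus was a member when it carried at least 2 UMIs of Aqp2, the vasopressin-regulated water channel, and at least 1 UMI of Scnn1b or Scnn1g, which encode the β and γ subunits of the epithelial sodium channel (ENaC). It also had to carry no UMI of the medullary genes Slc14a2, Aldh1a3 and Aqp4, at most 1 UMI of Slc12a3 and at most 1 UMI of Slc8a1, genes of the distal convoluted and connecting tubule. Of 81391 nuclei that passed quality control, 164 were members.

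The series held kidneys of 8 male C57BL/6J mice in 4 groups of 2 replicates. Ctrl mice carried Bmal1 lox/lox alleles and no transgene, and cKOt mice were Bmal1lox/lox/Pax8-rtTA/LC-1, in which the Pax8 promoter drives the doxycycline-dependent activator of Cre in renal tubules. Both genotypes drank doxycycline (2 mg/ml, with 20 mg/ml sucrose) for 2 weeks from 8 weeks of age, lived in 12 h light and 12 h dark, and were sacrificed at 14 weeks. Kidneys were taken at zeitgeber time 4 or 16 (ZT4 or ZT16), that is 4 or 16 h after lights on, and each library came from sorted nuclei of frozen tissue.

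Principal cells line the collecting duct. They take up sodium through ENaC under the control of aldosterone, which acts on the mineralocorticoid receptor, secrete potassium through apical potassium channels, and take up water when vasopressin moves aquaporin-2 to the apical membrane. In most cells a clock of transcription factors runs beside these functions. BMAL1 (encoded by Arntl) pairs with CLOCK or NPAS2 and activates the Per and Cry genes and the genes of the REV-ERB repressors (Nr1d1, Nr1d2), among others, while REV-ERB and ROR proteins act in opposite directions on Arntl and Npas2 through ROR response elements.

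The libraries held 8758 to 10975 nuclei and 36548873 to 54500820 UMIs after quality control. No library stood apart as a copy of another: replicate libraries differed far beyond counting noise (chi-square per degree of freedom of 31.1 to 55.8), pairs of libraries shared 18 to 42 barcodes, and no barcode was a member in more than 1 library. The Arntl UMIs do not check the knockout, because 3′ tags need not cover the deleted part of the gene.

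Members were scarce and shallow. The 8 libraries gave 11 and 22 members in Ctrl ZT4, 16 and 18 in Ctrl ZT16, 29 and 28 in cKOt ZT4, and 22 and 18 in cKOt ZT16. A member carried a median of 3230.5 UMIs (1075 to 19703) and 1813.5 genes, and all members together held 646728 UMIs, with 37694 to 115278 in a library. The first Ctrl ZT4 replicate was the smallest on both counts, so its levels were the least precise of the 8.

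The thresholds decided membership for many nuclei. Of 4925 nuclei with at least 2 Aqp2 UMIs, 2218 also had Scnn1b or Scnn1g, 491 of these had at most 1 Slc8a1 UMI, 471 at most 1 Slc12a3 UMI, and 164 no medullary gene. Just inside the rule lay 53 members with exactly 2 Aqp2 UMIs, 47 with a single ENaC UMI and 89 with a single Slc8a1 UMI. Just outside it lay 188 nuclei with 1 Aqp2 UMI, 363 with no ENaC UMI, 96 with 2 Slc8a1 UMIs and 84 with a single UMI of a medullary gene. Aqp4 alone kept out 187 nuclei, more than the rule admitted. With Aqp2 set to at least 1 the rule gave 352 nuclei, and without Aqp4 it gave 351.

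The genes of the rule are described without a test. Each member had to carry Aqp2 and an ENaC UMI, so the rule shaped the levels that follow, and no difference between groups is drawn from them. Members carried a median of 3 Aqp2 UMIs (2 to 16) and of 3 ENaC UMIs (1 to 27), 142 members had Scnn1b, 98 had Scnn1g and 76 had both. Summed over members, Aqp2 stood at 1114 and 919 counts per 1000000 member UMIs (CPM) in Ctrl ZT4, 1021 and 1015 in Ctrl ZT16, 1289 and 1162 in cKOt ZT4, and 858 and 674 in cKOt ZT16. Scnn1b stood at 690 and 699 CPM in Ctrl ZT4, 398 and 564 in Ctrl ZT16, 661 and 772 in cKOt ZT4, and 459 and 607 in cKOt ZT16. Scnn1g stood between 187 and 460 CPM over the 8 libraries.

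Members formed 0.111% and 0.221% of the nuclei of the Ctrl ZT4 libraries, 0.150% and 0.168% in Ctrl ZT16, 0.280% and 0.279% in cKOt ZT4, and 0.251% and 0.164% in cKOt ZT16. The 95% Wilson intervals, which cover counting error only, ran from 0.0621% to 0.199% for the lowest library and from 0.195% to 0.401% for the highest. The mean share was 0.244% ± 0.0546 (SD, n = 4) in cKOt and 0.162% ± 0.0454 (SD, n = 4) in Ctrl, a difference of 0.0811 percentage points that an exact two-sided permutation test over libraries did not separate from 0 (p = 0.0857, where 0.0286 is the smallest p possible). ZT16 and ZT4 differed by -0.0394 points (0.183% ± 0.0459 and 0.223% ± 0.0793, SD, n = 4 each, exact permutation p = 0.429). The genotypes overlapped, since the second cKOt ZT16 library lay below 2 Ctrl libraries.

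**Figure D1:**
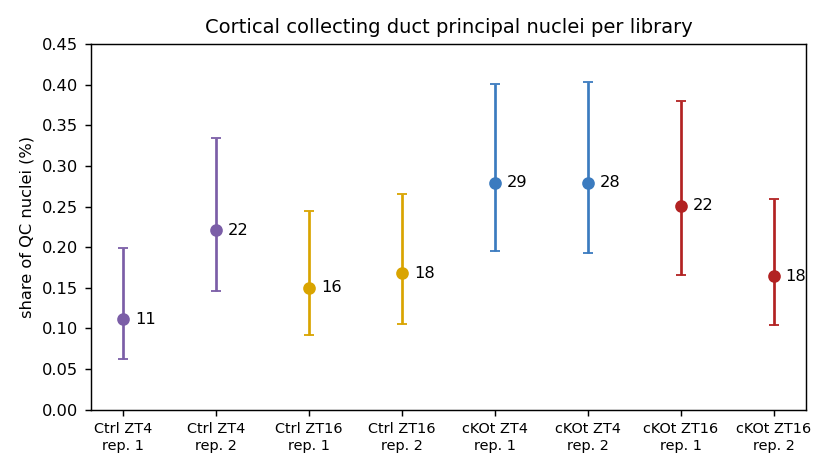
Share of quality-controlled nuclei that met the rule (y axis, percent) in each of the 8 libraries (x axis, by group), with 95% Wilson intervals as bars. Both cKOt ZT4 libraries sit at about 0.28%, and the Ctrl libraries lie between 0.111% and 0.221%.

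The label was checked against 10 principal cell genes that the rule did not use. Members carried a median of 4 of the 10, and 136 members (82.9%) carried at least 3, against 1.37% of 22181 proximal tubule nuclei (at least 5 Lrp2 UMIs and 2 of Slc34a1 or Slc5a12), which should lack these genes. Proximal nuclei were deeper (median 6494 UMIs), so the background of free RNA was not understated by depth. When each nucleus was thinned to 2000 UMIs, with 16 shallower members left out, 62.8% of members carried at least 3 of the 10, against 0.123% of proximal nuclei, 40.4% of connecting tubule nuclei and 32.6% of medullary collecting duct nuclei. Connecting tubule nuclei (3515) were those with an ENaC UMI, at least 2 Slc8a1 UMIs and no medullary gene, and medullary nuclei (1418) those with at least 2 UMIs each of Aqp2 and of the medullary genes and at most 1 of Slc8a1. Both were held to at most 1 Slc12a3 UMI.

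Single markers were seen in very unequal shares of members. A UMI of Fxyd4, the aldosterone-induced regulator of the sodium pump in this segment, was found in 76.8% of members, and Tmem45b in 75.6%. Hsd11b2, the enzyme that keeps cortisol and corticosterone off the mineralocorticoid receptor, was found in 62.2%, the basolateral water channel Aqp3 in 39.6%, and Scnn1a, the α subunit of ENaC, in 37.8%. The transcription factor Gata2 was found in 36.6%, the potassium channel Kcnj1 (ROMK) in 33.5%, the vasopressin V2 receptor gene Avpr2 in 18.3%, the transcription factor Elf5 in 17.1% and the potassium channel subunit Kcne1 in 9.15%. In proximal nuclei the shares were 4.04% for Fxyd4, 12.2% for Tmem45b, 2.06% for Hsd11b2, 2.65% for Aqp3, 7.57% for Scnn1a and 0.555% for Avpr2, so all of these were above the background. Thinned to 2000 UMIs, members carried Fxyd4 in 63.5% and Elf5 in 12.2% of nuclei, connecting tubule nuclei in 20.2% and 1.76%, and medullary nuclei in 54.7% and 37.2%.

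**Figure D2:**
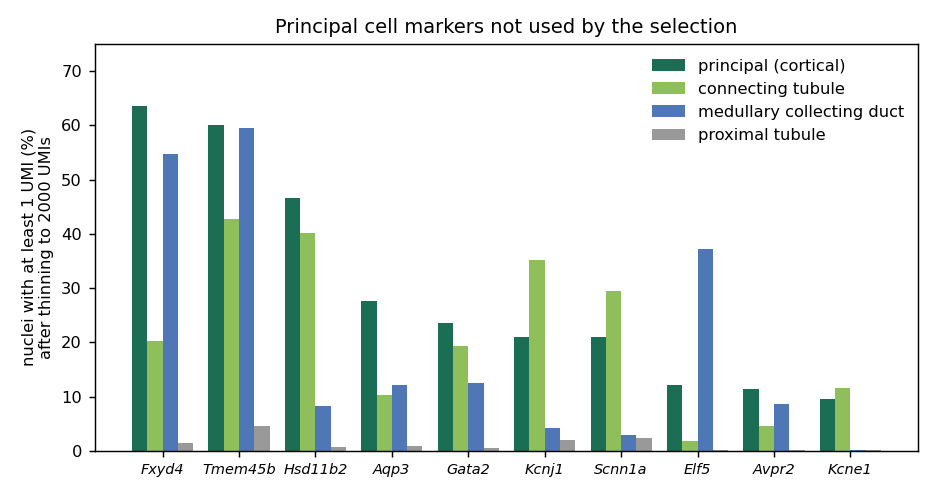
Share of nuclei with at least 1 UMI (y axis, percent, each nucleus thinned to 2000 UMIs) of the 10 principal cell genes not used by the rule (x axis), in members, connecting tubule, medullary collecting duct and proximal tubule nuclei. Fxyd4 reaches 63.5% in members and 20.2% in connecting tubule nuclei, Kcnj1 20.9% and 35.2%, and proximal nuclei stay lowest for every gene.

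Genes of other cell types were present unevenly, and in some libraries their summed level exceeded that of the principal cell genes. Members had 0 UMIs of Trpv5 and Pvalb, which define connecting and distal convoluted tubule, and 7 of 8 medullary genes were at 0, of which 3 belong to the rule. The whole list of 10 connecting and distal convoluted tubule genes, which includes Slc8a1 and Slc12a3 of the rule, still summed to 318 to 524 CPM over libraries, with 51 UMIs of Calb1. The summed level of 10 proximal tubule genes ran from 969 to 2675 CPM over libraries, that of 8 thick ascending limb genes from 496 to 2576, of 8 endothelial genes from 53.1 to 2385 and of 10 intercalated cell genes from 0 to 162. The 10 principal cell genes outside the rule summed to 1820 to 3288 CPM. They stood at 2014 CPM in the second Ctrl ZT16 library, below the proximal (2675) and endothelial (2385) lists. In the first cKOt ZT16 library they stood below the proximal list (2375 against 2585). They stood below the ascending limb list in the second cKOt ZT4 (2255 against 2490) and second cKOt ZT16 library (1820 against 2576). Pooled over libraries, the proximal list stood at 1688.5 CPM in members, 2171 in connecting tubule and 1507 in medullary nuclei. In the same order the ascending limb list stood at 1350, 1703 and 752 CPM and the endothelial list at 571, 476 and 368. The principal cell genes outside the rule stood at 2288, 1476 and 1600 CPM. Called mixed nuclei here are 27 members, with 28.0% of all member UMIs, that Scrublet called as doublets (15 members) or that carried at least 5 UMIs of Lrp2 (11), Slc12a1 (7) or the endothelial gene Flt1 (5). These 3 genes belong to the proximal, ascending limb and endothelial lists, so leaving the nuclei out had to lower those lists. Without the 27 the ranges were 963 to 1278 CPM for the proximal, 345 to 790 for the ascending limb and 69 to 442 for the endothelial list, while those of the intercalated list (0 to 286) and of the connecting and distal convoluted tubule list (382 to 590) were higher. The calls between groups are given also without the mixed nuclei.

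The circadian clock was the only list of genes with more than 1 call in a contrast between groups. The promoters of the 3 that passed the test are shown first, because the contrast removes a factor of the clock that works through short promoter motifs. Each is the RefSeq sequence on GRCm38.p6 from 250 bases before to 50 bases after a listed gene start, read on the strand of the gene, and capitals mark motif matches.

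Arntl (chr7:113207261-113207560, plus strand): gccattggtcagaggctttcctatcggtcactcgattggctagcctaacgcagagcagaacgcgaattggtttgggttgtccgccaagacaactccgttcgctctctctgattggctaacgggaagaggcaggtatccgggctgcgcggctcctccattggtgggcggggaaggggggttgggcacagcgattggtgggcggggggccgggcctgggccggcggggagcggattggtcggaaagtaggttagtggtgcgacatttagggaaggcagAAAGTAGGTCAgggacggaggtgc
Npas2 (chr1:39194022-39194321, plus strand): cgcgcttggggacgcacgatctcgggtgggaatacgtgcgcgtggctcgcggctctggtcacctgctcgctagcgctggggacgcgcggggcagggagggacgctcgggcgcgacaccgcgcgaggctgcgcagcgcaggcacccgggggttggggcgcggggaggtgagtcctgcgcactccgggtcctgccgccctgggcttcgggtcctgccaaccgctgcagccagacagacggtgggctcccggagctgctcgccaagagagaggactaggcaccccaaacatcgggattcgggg
Nr1d2 (chr14:18239057-18239356, minus strand): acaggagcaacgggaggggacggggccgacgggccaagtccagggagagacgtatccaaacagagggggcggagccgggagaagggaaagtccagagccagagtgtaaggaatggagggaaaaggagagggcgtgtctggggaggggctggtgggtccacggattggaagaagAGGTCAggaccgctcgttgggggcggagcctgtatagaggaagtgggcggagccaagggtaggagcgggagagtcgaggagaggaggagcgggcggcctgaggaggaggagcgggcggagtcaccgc

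Both strands were searched for the ROR response element, the E-box CACGTG, the D-box TTATGTAA and the AGGTCA site, which lies inside the ROR response element. The Arntl window held 1 ROR response element, at base 277, which contains AGGTCA at base 282. The Nr1d2 window held AGGTCA at base 174, and the Npas2 window held none of the 4. Over 32851 promoters of the same length the shares with a match were 0.384% for the ROR response element, 7.15% for the E-box, 16.3% for AGGTCA and 0.938% for the D-box. For Arntl, which has 2 listed starts, the window with more matches is printed.

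Npas2, which encodes the partner that can stand in for CLOCK, was higher in cKOt. Its UMIs numbered 0 and 5 in Ctrl ZT4, 10 and 1 in Ctrl ZT16, 38 and 33 in cKOt ZT4, and 48 and 36 in cKOt ZT16, or 0, 46.0, 173, 16.1, 419, 286, 479 and 485 CPM in the same order. Each cKOt library lay above each Ctrl library, 73 of the 164 members carried the gene, and at most 11 of the 48 UMIs of the highest library lay in 1 nucleus. Averaged over both times, Npas2 was higher in cKOt by 2.88 on the log2 scale (SE 0.44, edgeR quasi-likelihood adjusted p = 0.0038), and it was the only gene called in this contrast, 1 of 4085 tested (0.0245%). No Ctrl group reached the filter of 5 counts in each replicate, so Npas2 was tested only through the cKOt groups, where it was high. The filter thus favoured a difference. The gene was also called by DESeq2 (adjusted p = 0.0031) and without the mixed nuclei (2.72, edgeR adjusted p = 0.000124). The call was lost without either Ctrl ZT4 replicate (2.63, adjusted p = 0.0687 without the first, and adjusted p = 0.0728 without the second, where the Ctrl ZT4 library that is left held 0 UMIs and no fold is given) and with equal numbers of nuclei per library (2.56, adjusted p = 0.110). At ZT4 alone the difference was 3.33 (SE 0.68, adjusted p = 0.0138) and at ZT16 alone 2.43 (SE 0.57, adjusted p = 0.0584). The ZT4 call was lost with DESeq2 (adjusted p = 0.0824), without the Scrublet doublets (0.0819), with equal numbers of nuclei (0.132), and without either Ctrl ZT4 replicate (0.170 and 0.139) or the first cKOt ZT4 replicate (0.0526). At ZT16 the gene was called with the replicate block (adjusted p = 0.0180), TMM over all genes (0.0279), no filter (0.00208), Aqp4 left out of the rule (0.0293), and without either cKOt ZT4 replicate (0.0189 and 0.0415) or the first Ctrl ZT16 replicate (0.0128). The ZT16 value was 4.82 without the first and 1.56 without the second Ctrl ZT16 replicate. The 0 of the first Ctrl ZT4 library allows up to 79.6 CPM at its depth.

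Arntl differed between times in Ctrl and between genotypes at ZT4. Its UMIs numbered 1 and 1 in Ctrl ZT4, 10 and 10 in Ctrl ZT16, 18 and 19 in cKOt ZT4, and 25 and 11 in cKOt ZT16, spread over 59 members. The Ctrl ZT4 libraries, at 26.5 and 9.19 CPM, lay below the other 6, which ran from 148 to 250 CPM. Arntl was higher at ZT16 than at ZT4 in Ctrl by 3.43 (SE 0.81, edgeR adjusted p = 0.0282), and higher in cKOt than in Ctrl at ZT4 by 3.56 (SE 0.76, adjusted p = 0.0159). It passed the filter on low counts only through Ctrl ZT16 in the first contrast and only through cKOt ZT4 in the second. Each was the group where it was high, so that the filter favoured a difference. In cKOt the ZT16 minus ZT4 value was 0.22 (SE 0.44, adjusted p = 0.951). The difference between those time changes was -3.21 (SE 0.95) and did not pass (adjusted p = 0.124), so it was not shown that the genotypes differ in the change with time. Both calls rested on 2 UMIs in Ctrl ZT4. They were lost with DESeq2 (3.55 and 3.69, adjusted p = 0.396 and 0.443), without the mixed nuclei (3.09 and 3.29, adjusted p = 0.169 and 0.0662) and without any 1 of the libraries compared (0.0687 to 0.298 for the first and 0.0678 to 0.352 for the second).

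Nr1d2, which encodes the repressor REV-ERBβ, ran the other way. Its UMIs numbered 11 and 23 in Ctrl ZT4, 0 and 2 in Ctrl ZT16, 3 and 3 in cKOt ZT4, and 0 and 0 in cKOt ZT16, in 25 members. The Ctrl ZT4 libraries, at 292 and 211 CPM, lay above the other 6, which reached at most 33.1 CPM. Nr1d2 was lower at ZT16 than at ZT4 in Ctrl (-3.73, SE 0.81, edgeR adjusted p = 0.0206) and lower in cKOt than in Ctrl at ZT4 (-2.96, SE 0.63, adjusted p = 0.0172). In both contrasts it passed the filter on low counts only through Ctrl ZT4, the group where it was high, so that the filter favoured a difference. Without the mixed nuclei the second call held (-3.83, adjusted p = 0.0157) and the first did not (-3.85, adjusted p = 0.0929). DESeq2 made neither call (-3.88 and -3.04, adjusted p = 0.396 and 0.528), both were lost with Aqp2 set to at least 1 (-2.67 and -1.92, adjusted p = 0.103 and 0.147), and both were lost without any 1 of the libraries compared (0.0542 to 0.159 and 0.122 to 0.250). The 0 UMIs of cKOt ZT16 among 174355 allow up to 17.2 CPM.

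The remaining clock genes were not called. Clock numbered 4 and 14 UMIs in Ctrl ZT4, 7 and 13 in Ctrl ZT16, 25 and 24 in cKOt ZT4, and 18 and 19 in cKOt ZT16 (averaged cKOt minus Ctrl 0.70, SE 0.33, edgeR adjusted p = 0.767). Cry1, a repressor of the clock, numbered 1, 0, 1 and 2 in the Ctrl libraries and 7, 7, 8 and 5 in the cKOt libraries, and its averaged difference was 2.32 (SE 0.68, adjusted p = 0.347). The genotypes did not overlap for Cry1, on 31 UMIs in all. Per2, also a repressor, numbered 3 and 2 in Ctrl ZT4 and 16 and 12 in Ctrl ZT16 (2.65, SE 0.79, adjusted p = 0.121), and 16, 8, 15 and 2 in the cKOt libraries. Tef, a PAR bZIP output factor, numbered 7 and 21 in Ctrl ZT4 and 3 and 5 in cKOt ZT4 (-2.24, SE 0.60, adjusted p = 0.0773). Cry1 passed the filter on low counts only through the cKOt groups. In the contrasts given, Per2 passed it only through Ctrl ZT16 and Tef only through Ctrl ZT4. Each gene was high there, so that the filter favoured a difference. Nr1d1, with 4 UMIs in all members, Dbp with 13, Per1 with 14 and Per3 with 14 were too rare to test.

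Counted as a list of 20 clock genes, 9 were deep enough to test between genotypes at ZT4, of which 2 were higher and 1 lower (background 0.858% of 3614 genes called) and 8 had an unadjusted p under 0.05 (9.02% of all genes). Between times in Ctrl, 1 of 6 tested was higher and 1 lower (background 1.5% of 2592 genes). Between times in cKOt, edgeR called 0 of 9 and 0 had an unadjusted p under 0.05, with the same 0 and 0 by DESeq2 (background 0.281% of 3909 genes). Between genotypes at ZT16 edgeR called 0 of 8, 1 at an unadjusted p under 0.05 and 0 by DESeq2 (background 0.341% of 3222 genes). Averaged over time 1 of 10 was called (background 0.0245%) and 7 had an unadjusted p under 0.05 (6.34% of all genes). In the difference of the time change edgeR called 0 of 10 (background 1.25%), with 3 at an unadjusted p under 0.05 (8.69% of all genes, DESeq2 0 and 3). The median log2 difference of the list was 1.70 at ZT4 against 0.13 over all genes tested, and 1.91 against 0.13 without the mixed nuclei. The 2 Ctrl ZT4 libraries enter each of the 3 comparisons with called clock genes, so those comparisons are not independent of each other.

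The same genes were also read in connecting tubule, medullary collecting duct and proximal tubule nuclei, as a description. For Npas2 every cKOt library lay above every Ctrl library there too. In connecting tubule nuclei Npas2 stood at 27.6, 15.6, 43.1 and 46.9 CPM in the Ctrl libraries and at 314, 280, 281 and 260 in the cKOt libraries. Arntl there stood at 79.0 and 32.0 CPM in Ctrl ZT4 and at 118 to 306 in the other 6 libraries, and Nr1d2 at 90.9 and 145 in Ctrl ZT4 and at 8.37 to 35.0 elsewhere. In medullary nuclei Npas2 stood at 17.9, 28.6, 82.6 and 53.5 CPM in the Ctrl libraries and at 309 to 424 in cKOt. Arntl in medullary nuclei stood at 47.8 and 37.1 CPM in Ctrl ZT4 and at 90.9 to 170 elsewhere. Nr1d2 there stood at 77.6 and 94.4 CPM in Ctrl ZT4 and at 16.5 to 46.2 elsewhere. In proximal tubule nuclei Npas2 stood at 15.4 and 27.5 CPM in Ctrl ZT4, at 185 and 180 in Ctrl ZT16 and at 472 to 526 in cKOt. These nuclei share libraries, and with them free RNA, with the members, and the part of free RNA in the members' clock gene levels was not tested.

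**Figure D3:**
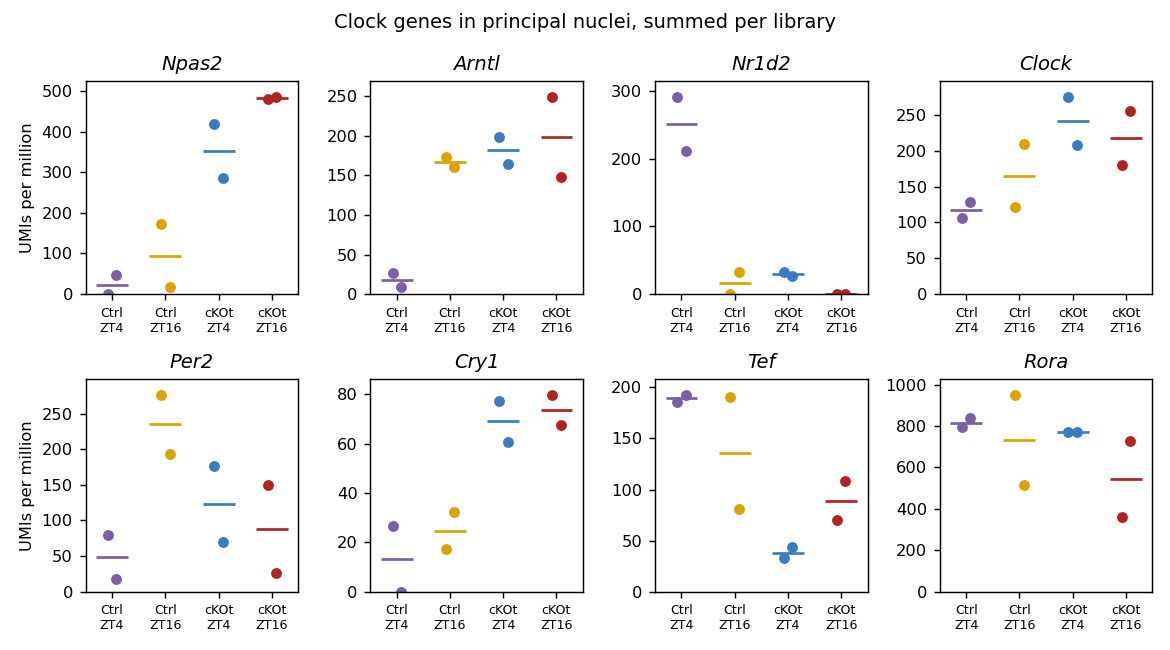
Level of 8 clock genes in members (y axis, CPM, over the UMIs summed over the members of a library), 1 point per library and a bar at the mean of each group, by group on the x axis. Npas2 reaches 286 to 485 CPM in the 4 cKOt libraries and at most 173 in Ctrl, and Nr1d2 exceeds 33.1 CPM only in Ctrl ZT4.

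No gene of the sodium list, which held 24 genes of ENaC and aldosterone action, was called between groups, and 1 gene of the potassium channel list was. Between genotypes averaged over time edgeR called 0 of 19 tested, 1 at an unadjusted p under 0.05 (DESeq2 0 and 1). In the other 5 contrasts edgeR also called 0 of 11 to 19, with 0 to 3 at an unadjusted p under 0.05, and DESeq2 called 0. Over all genes tested in the 6 contrasts 0.0245% to 1.5% were called and from 259 of 4085 (6.34%) to 286 of 2592 had an unadjusted p under 0.05. Averaged cKOt minus Ctrl values were 0.12 (SE 0.36, adjusted p = 0.992) for Scnn1a, -0.09 (SE 0.28, adjusted p = 0.992) for Hsd11b2, -0.01 (SE 0.20, adjusted p = 0.997) for the mineralocorticoid receptor gene Nr3c2, and 0.33 (SE 0.52, adjusted p = 0.975) for the aldosterone-induced kinase gene Sgk1.

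These members were measured at unlike precision. Nr3c2 stood at 1524 to 2095 CPM over the 8 libraries, on 1177 UMIs, and Hsd11b2 at 239 to 451 CPM on 241 UMIs, whereas Sgk1 rested on 43 UMIs and Scnn1a on 94. Nedd4l, the ubiquitin ligase that removes ENaC from the membrane, stood at 3263 and 2573 CPM in Ctrl ZT4, 1471 and 1821 in Ctrl ZT16, 2006 and 2498 in cKOt ZT4 and 1417 and 1672 in cKOt ZT16. Its ZT16 libraries lay below the ZT4 libraries within each genotype, and neither change passed the test (-0.80, SE 0.28, edgeR adjusted p = 0.253 in Ctrl, and -0.51, SE 0.28, adjusted p = 0.700 in cKOt). In the difference of the time change between genotypes, 18 of the 19 sodium genes tested lay below 0, with a median of -0.56 against -0.04 over all genes, and edgeR called 0 of them, 3 at an unadjusted p under 0.05 (DESeq2 0 and 1). Without the mixed nuclei 14 of 18 lay below 0, with a median of -0.36 against -0.02. These 19 share the same 8 libraries, and 1 of them, Cry1, is also a clock gene. The shift was not particular to this list. In the same contrast 9 of 10 clock genes (median -0.74) and 7 of 9 principal cell genes (median -0.56) lay below 0, and both lists share genes with the sodium list. Of the water genes 6 of 14 lay below 0, and of the transcription factor genes 7 of 14.

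Kcnma1, the large-conductance potassium channel, was that gene, and it was found in 8 members. Its UMIs numbered 14 and 15 in Ctrl ZT4, 2 and 0 in Ctrl ZT16, 1 and 0 in cKOt ZT4, and 7 and 0 in cKOt ZT16. It was lower in cKOt than in Ctrl at ZT4 (-5.06, SE 1.04, edgeR adjusted p = 0.0138, DESeq2 adjusted p = 0.995), 10 of the 15 UMIs of the second Ctrl ZT4 library lay in 1 nucleus, and 87.2% of its UMIs lay in mixed nuclei, without which it was too rare to test. Kcnma1 passed the filter on low counts only through Ctrl ZT4, the group where it was high, so that the filter favoured a difference. Kcnj1, the main apical potassium channel of the segment, was not called between genotypes (0.48, SE 0.42, adjusted p = 0.915), at 79.6, 101, 156 and 129 CPM in the Ctrl libraries and 165, 234, 190 and 40.5 in the cKOt libraries.

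The water list of 22 genes gave 0 edgeR calls of 14 tested between genotypes averaged over time, 2 at an unadjusted p under 0.05 (DESeq2 0 and 1), and 0 in each of the other 5 contrasts, with 0 to 3 at an unadjusted p under 0.05 (DESeq2 0 called, 0 to 1). Aqp3, the exit path for water, stood at 79.6 and 101 CPM in Ctrl ZT4, 51.9 and 113 in Ctrl ZT16, 187 and 252 in cKOt ZT4, and 240 and 135 in cKOt ZT16. Every cKOt library lay above every Ctrl library for Aqp3, on 104 UMIs, and the difference of 1.24 (SE 0.39) did not pass over all genes (edgeR adjusted p = 0.439). No Ctrl group reached the filter of 5 counts in each replicate for Aqp3. It was tested only through the cKOt groups, where it was high, so that the filter favoured a difference. Fxyd4 ranged from 322 to 1177 CPM within Ctrl ZT16 alone. Of 14 tested principal cell transcription factor genes edgeR called 0, with 0 at an unadjusted p under 0.05 (DESeq2 0 and 0), and Tfcp2l1, a factor of collecting duct cell identity, stood at 1128 to 1677 CPM over the 8 libraries (0.31, SE 0.21, adjusted p = 0.865).

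Most genes called between groups had most of their UMIs in the mixed nuclei. EdgeR called 39 genes between times in Ctrl (9 higher and 30 lower at ZT16), 11 between times in cKOt (all 11 higher at ZT16), 31 between genotypes at ZT4 (5 higher and 26 lower in cKOt) and 11 at ZT16 (10 higher and 1 lower). Without the first Ctrl ZT16 replicate the split between times in Ctrl turned to 21 higher and 11 lower, and with Aqp4 left out of the rule the split at ZT4 turned to 15 higher and 12 lower. In the difference of the time change 51 genes were called (1.25% of 4085). DESeq2 called 7, 3, 7, 3 and 20 in the same order. Of the 75 genes called in any of the 6 contrasts, 50 (66.7%) had over 50% of the UMIs of their highest library in 1 nucleus, against 4.97% of the 4085 genes tested. Over 50% of the UMIs lay in the 27 mixed nuclei for 61 (81.3%), against 5.85% of the genes tested. A higher CPM in proximal tubule nuclei than in members was found for 58 (77.3%), Npas2 and Arntl among them, against 33.5% of the genes tested. The lists of genes of other nephron segments held 1 of the calls, Slc12a1.

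Ghr, the growth hormone receptor gene, was called in 5 of these contrasts. Its UMIs numbered 201 and 348 in Ctrl ZT4, 28 and 70 in Ctrl ZT16, 49 and 48 in cKOt ZT4, and 325 and 241 in cKOt ZT16. Ctrl ZT4 and cKOt ZT16 did not overlap with the other 2 groups. Ghr was lower at ZT16 in Ctrl (-2.36, SE 0.35, edgeR adjusted p = 0.00079), higher at ZT16 in cKOt (2.81, SE 0.35, adjusted p = 0.00014), lower in cKOt at ZT4 (-3.11, SE 0.36, adjusted p = 2.7e-05) and higher in cKOt at ZT16 (2.06, SE 0.35, adjusted p = 0.0064). Of its UMIs 77.9% lay in mixed nuclei, and its level was 2026 CPM in members against 5894 CPM in proximal nuclei. Without the mixed nuclei the Ctrl value turned to 0.45 (adjusted p = 0.815), and the other 3 were 0.84, -0.19 and 0.21 (adjusted p = 0.718 to 0.991).

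Trps1, Wdr17, Gm42397 and Slc27a2, the last a fatty acid transporter gene of proximal tubule, were called with Ghr in the difference of the time change, and mixed nuclei held 68.3%, 83.2%, 76.7% and 73.2% of their UMIs, without which none of the 4 was called by edgeR. Egf, a product of the distal convoluted tubule and thick ascending limb, was higher in cKOt at ZT4 (4.45, SE 0.93, edgeR adjusted p = 0.0147), 289 of the 300 UMIs of the second cKOt ZT4 library lay in 1 nucleus, and without the mixed nuclei the value was 0.55 (adjusted p = 0.985). Slc12a1, the sodium transporter of the thick ascending limb, was higher in the same contrast (2.99, SE 0.59, adjusted p = 0.0131), with 178 of 209 UMIs of that library in 1 nucleus and a value of 0.18 (adjusted p = 0.991) without the mixed nuclei. Slc12a1 is 1 of the genes that define the mixed nuclei, so that nucleus was left out by definition and the value had to fall. Among the called genes with under 50% of their UMIs in 1 nucleus and in mixed nuclei was Prex2, with 11 and 24 UMIs in Ctrl ZT16 and 2 and 3 in cKOt ZT16 (-3.20, SE 0.65, adjusted p = 0.0236), and Nexmif, with 0 and 0 in Ctrl ZT4 and 13 and 5 in Ctrl ZT16, at least 7.33-fold higher at ZT16 when 3 counts over the 146496 UMIs of the Ctrl ZT4 group are taken as the floor (adjusted p = 0.0212). Prex2 and Nexmif each passed the filter on low counts only through Ctrl ZT16, the group where it was high, so that a difference was bound to show. DESeq2 called neither Prex2 nor Nexmif (adjusted p = 0.214 for Prex2 and 0.176 for Nexmif), Prex2 was called in 4 and Nexmif in 5 of 8 fits without 1 library, both were lost with Aqp2 set to at least 1 (0.0725 and 0.378), and without the mixed nuclei both were too rare to test.

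Without the mixed nuclei edgeR called 1 gene between times in Ctrl, 0 genes between times in cKOt, Npas2, Nr1d2 and Ralyl between genotypes at ZT4, 0 at ZT16, Npas2 and Ralyl averaged over time, and 0 in the difference of the time change. Ralyl was named after its values were seen. In the 6 contrasts taken in that order 150 of 1716, 180 of 3012, 174 of 2904, 134 of 2051, 199 of 3114 and 162 of 3114 genes had an unadjusted p under 0.05, and DESeq2 was not run without these nuclei. With 11 nuclei of each library, 88 in all with mixed nuclei kept, edgeR called 19, 10, 5, 26, 0 (158 at an unadjusted p under 0.05) and 50 in the same order, against 137 nuclei when the mixed ones were left out.

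**Figure D4:**
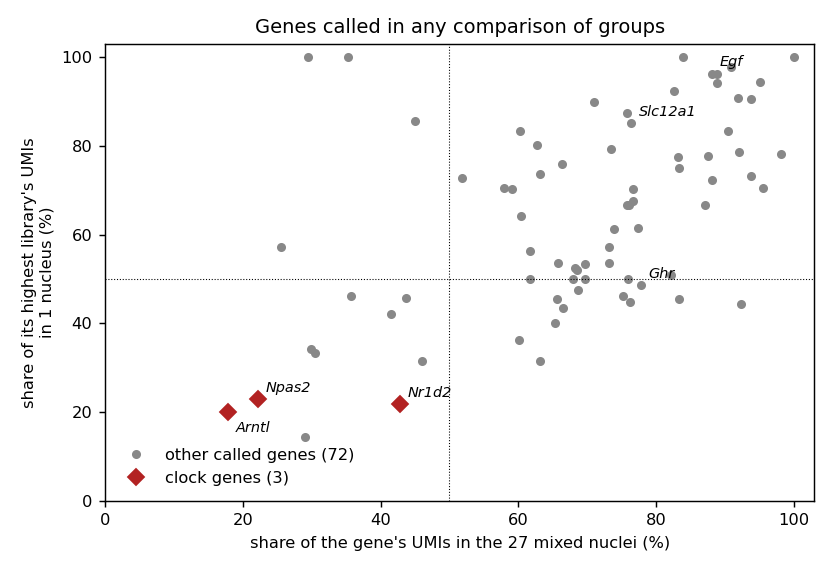
The 75 genes called in any contrast between groups, by the share of their UMIs in the 27 mixed nuclei (x axis, percent) and the share of the UMIs of their highest library that lay in 1 nucleus (y axis, percent), with dotted lines at 50%. Most genes sit at the upper right, and the labelled clock genes at the lower left.

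The members were next set against connecting tubule and medullary collecting duct nuclei of the same 8 libraries, with the library as a block. All 3 kinds of nuclei were chosen by genes among the same 8, although Aqp2 was not used for connecting tubule nuclei and the ENaC genes not for medullary nuclei, so genes that go with those 8 were bound to differ, and the values describe how the neighbours differ. Against connecting tubule nuclei edgeR called 683 of 13891 genes (4.92%), 274 higher (1.97%) and 409 lower (2.94%) in members. Scaled on all genes in place of genes with at least 5 counts in every sum, the split was 176 higher and 830 lower, and the median log2 value over all genes moved from -0.12 to -0.29, so differences of that size are not read.

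Of the 10 principal cell genes outside the rule, 4 were higher in members than in connecting tubule nuclei (Fxyd4, Elf5, Aqp3 and Tmem45b, the last not with Aqp2 set to at least 1 or TMM over all genes), 1 was lower (Kcnj1) and 5 were not called. Fxyd4 stood at 598 ± 261 CPM in members and 129 ± 45.4 in connecting tubule nuclei (SD, n = 8 libraries), higher in 8 of 8 libraries (2.07, SE 0.14, edgeR adjusted p = 6.6e-43). Dab1, an adaptor protein gene, stood at 666 ± 150 against 128 ± 36 CPM (2.26, SE 0.14, adjusted p = 4.9e-54), and Dnm3, Tmtc2, Chst9, Veph1, Rbfox1 and Mgat4c were higher by 1.16 to 1.79, each in 8 of 8 libraries. Elf5 was higher by 2.78 (SE 0.41, adjusted p = 1.3e-09) and the kidney developmental factor gene Pax2 by 0.91 (SE 0.12, adjusted p = 4.1e-11). Of the 22 transcription factor genes tested 6 were higher and 2 lower. Aqp3 was higher by 1.27 (SE 0.23, adjusted p = 1.7e-06), a call lost with Aqp2 set to at least 1.

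Of 7 connecting and distal convoluted tubule genes tested, 6 were lower in members (Calb1, Klk1, Trpv5, Atp2b4, Trpm6 and S100g). Calb1, the calcium-binding protein calbindin, stood at 78.3 ± 33.1 CPM against 607 ± 206 (-2.98, SE 0.19, edgeR adjusted p = 4.9e-54), and Kl, the co-receptor for FGF23, at 98.6 ± 43.7 against 778 ± 259 (-3.05, SE 0.17, adjusted p = 1.6e-64). Trpv5, the apical calcium channel, had 0 UMIs in members and 90.9 CPM in connecting tubule nuclei, at least 19.6-fold lower when 3 counts over all members are taken as the floor. Egfem1 showed 7 UMIs in members and 1138 ± 621 CPM in connecting tubule nuclei (-6.69, SE 0.25, adjusted p = 9.98e-150). Wnk1, the kinase gene that controls sodium and potassium transport, stood at 284 ± 54.1 against 1396 ± 333 CPM (-2.41, SE 0.14, adjusted p = 2.8e-64), lower in 8 of 8 libraries, and Wnk4 was lower by 1.58 on the log2 scale. Kcnj1 was lower as well (-0.94, SE 0.18, adjusted p = 1.7e-05).

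Hsd11b2, Scnn1a, Nr3c2 and Tfcp2l1 were not called against connecting tubule nuclei. Hsd11b2 stood at 364 ± 84 CPM in members and 292 ± 78.6 (0.23, SE 0.15, edgeR adjusted p = 0.484, but -0.53, adjusted p = 0.00884, with Aqp2 set to at least 1), Scnn1a at 145 ± 30.7 and 182 ± 27 (-0.45, SE 0.19, adjusted p = 0.178), Nr3c2 at 1843 and 2095 on average (-0.32, SE 0.11, adjusted p = 0.0614), and Tfcp2l1 at 1426 and 1296 (0.00, SE 0.11, adjusted p = 0.992). Of the 24 sodium genes, 1 was higher (Fxyd4) and 5 lower, among them Wnk1, Wnk4, Atp1b1 and Usp2. Of 10 intercalated cell genes 6 were lower in members, among them Slc4a9, Slc26a4 and Atp6v0d2, transporter and pump genes of intercalated cells. With Aqp2 set to at least 1, which gave 352 nuclei, the sign of these 3 turned and the calls were lost.

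Against medullary nuclei edgeR called 1278 of 11205 genes (11.4%), 482 higher (4.3%) and 796 lower (7.1%) in members, and scaled on all genes 392 higher and 1149 lower. Genes of aldosterone action differed between these nuclei in both directions. Hsd11b2 stood at 364 ± 84 CPM in members and 49.7 ± 32.7 in medullary nuclei (2.87, SE 0.20, edgeR adjusted p = 3.6e-25) and Scnn1a at 145 ± 30.7 against 18.1 ± 7 (2.87, SE 0.30, adjusted p = 7.7e-15), each higher in 8 of 8 libraries. Nr3c2 (1.28, SE 0.13, adjusted p = 3.1e-15), Nedd4l (1.00, SE 0.13, adjusted p = 1.7e-10) and Kcnj1 (2.29, SE 0.30, adjusted p = 2.6e-10) were higher too. Sgk1, at 64.7 ± 26.6 against 224 ± 55.1 CPM, ran the other way (-1.94, SE 0.22, adjusted p = 1.4e-12), as did Tsc22d3, a glucocorticoid-induced gene (-1.28, SE 0.26, adjusted p = 6.5e-05). Of the 24 sodium genes 6 were higher and 3 lower. Fxyd4 was not called (598 ± 261 against 589 ± 328 CPM, -0.10, SE 0.15, adjusted p = 0.784).

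Transcription factor genes split members from medullary nuclei in both directions, 6 higher and 5 lower of 20 tested. Tfcp2l1 stood at 1426 ± 176 CPM against 231 ± 83.3 (2.49, SE 0.14, edgeR adjusted p = 1.98e-33), and Esrrg, an orphan nuclear receptor gene, was higher by 1.51 (SE 0.13). Elf5 (-2.11, SE 0.24), Pax2 (-1.07, SE 0.13), Pax8 (-0.92, SE 0.14), Klf5 (-2.66, SE 0.42) and Ehf (-0.86, SE 0.17) were lower in members. Elf5 thus stood between the neighbours, above connecting tubule and below medullary nuclei, and both differences passed the test. The order of Pax2 was the same.

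Among the remaining genes, Rhcg, an ammonia channel gene, stood at 628 ± 190 CPM against 64.2 ± 25.7 in medullary nuclei (3.12, SE 0.17, edgeR adjusted p = 5.5e-35), and Rbfox1, Col26a1, Mgat4c, Pappa, Plppr1 and Ipcef1 were higher by 2.68 to 3.69. Pkhd1, which encodes the cilium protein fibrocystin, was higher by 1.51 (SE 0.13). Pcdh7, listed as a medullary gene, was lower (84.2 ± 68 against 1118 ± 202 CPM, -3.91, SE 0.20, adjusted p = 2.8e-37), with Heg1, Alcam, Agmo, Slc4a7, Fam49b, Bcat1 and AC106834.1. Nfat5, the tonicity-responsive factor gene, was lower (-1.0, SE 0.14), and so were the heat shock genes Hsph1 (-1.83, SE 0.24), Hspa1a (-2.34, SE 0.55) and Hspa1b (-2.12, SE 0.41), which were 3 of 14 stress genes tested. In the phosphodiesterase genes that end vasopressin's cyclic AMP signal, Pde10a (2.22, SE 0.26) and Pde4d (1.42, SE 0.13) were higher and Pde4a (-2.01, SE 0.46) lower.

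**Figure D5:**
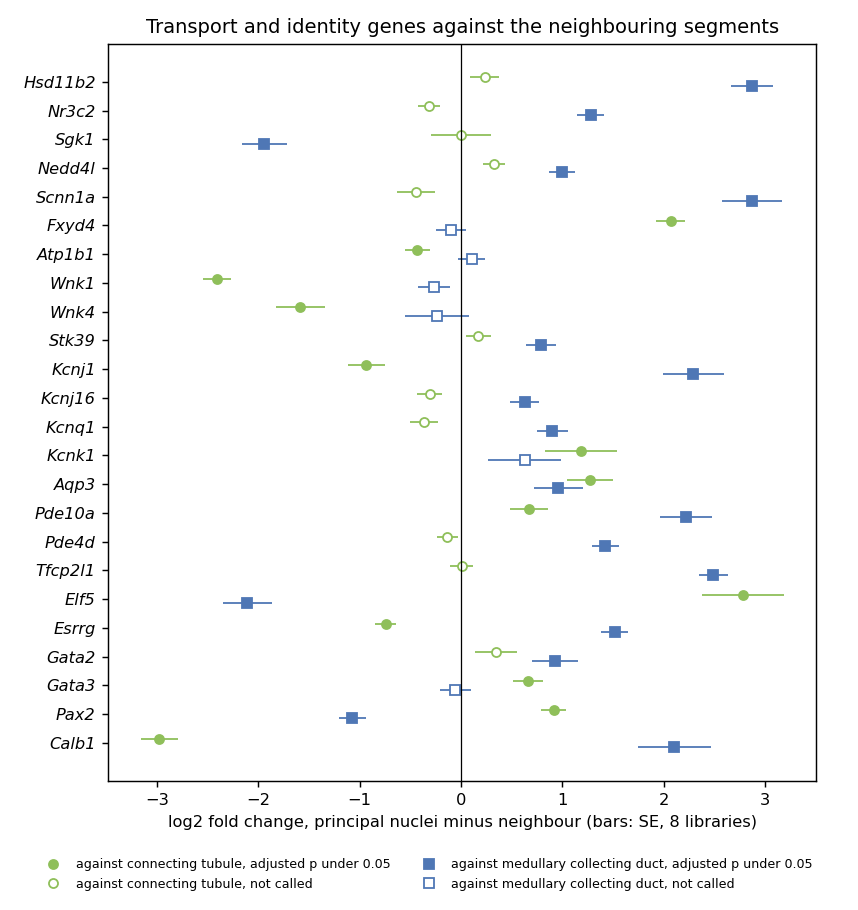
Log2 difference of members from connecting tubule and from medullary collecting duct nuclei (x axis, with SE as bars) for 24 genes (y axis); filled points passed an adjusted p of 0.05. Hsd11b2 and Scnn1a are at 2.87 against medullary nuclei and at 0.23 and -0.45, not called, against connecting tubule nuclei.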

How the data were processed

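Nuclei of frozen kidneys were sorted and profiled with 10x Genomics 3′ chemistry, 1 library per mouse. The authors aligned reads and counted UMIs per gene and nucleus with Cell Ranger 7.1.0, and deposited the raw counts of filtered barcodes. The sources name both mm10 and GRCm39 as the genome, so the build of the counts was not settled. The selection rule was applied to nuclei that reached 500 genes and 800 UMIs and did not exceed 2% of mitochondrial UMIs. Doublets, of which Scrublet (scanpy 1.11.5) marked 4.83% to 5.92% of a library, were kept in the members and removed in an alternative.

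UMI counts were summed over the members of each library, and each sum is 1 replicate. The 4 groups were fitted in 1 model with the quasi-likelihood test of edgeR 4.0.16 (R 4.3.3), on genes that reached 5 counts in each replicate of 1 or more of the groups compared, without the 8 genes of the rule and mitochondrial genes. TMM factors came from the 1318 genes with at least 5 counts in every sum. Called means a Benjamini-Hochberg adjusted p under 0.05 over all genes tested. Connecting tubule and medullary nuclei were compared with members on genes with at least 5 counts in at least 4 libraries, with the library as a block. Fold changes are log2 values of model coefficients. Shares of nuclei were compared over libraries by exact two-sided permutation tests (scipy 1.17.1). Promoter sequences and motif positions came from RefSeq on GRCm38.p6.

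The members and gene lists were chosen with earlier results of these data known, and no gene list was chosen independently of these libraries. Named in the text were the genes of the rule, listed genes that were called with up to 5 more of a list, per contrast and direction up to 5 other called genes with the smallest p whose groups did not overlap, and, against each neighbour, the 8 other genes with the smallest p and 1 sign in 8 of 8 libraries. A few named genes are not reported here. Alternatives were RLE factors, TMM over all genes, no filter, DESeq2 1.42.0, a replicate block, biotypes tested apart, no doublets, Aqp2 of at least 1, 11 nuclei per library, and each library left out. TMM over all genes, the rule without Aqp4 and the removal of mixed nuclei were added after the data were seen. On simulated data with known changes edgeR called 23.8% of 2-fold and 90.0% of 4-fold changes averaged over time among 4017 genes, 11.8% and 61.6% between times in Ctrl among 2517 genes, and 27.3% and 68.4% against connecting tubule nuclei among 13940 genes. In the same order 4 of 96, 7 of 60 and 1 of 95 edgeR calls were false. DESeq2 called 9.52% and 71.25%, 1.47% and 20.5%, and 22.2% and 63.3%. The simulated counts had 1 spread for all genes (common dispersion 0.0509) and no UMIs piled up in single nuclei, so these shares need not hold for the real counts.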

Additional observations from a re-analysis of the deposited data

Results flagged for a closer look

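The change from ZT4 to ZT16 differed between cKOt and Ctrl for 51 genes by the interaction term of the edgeR model, 46 with a positive and 5 with a negative value. Of the named genes the log2 difference of the time change was 5.17 for Ghr, 4.77 for Trps1, 7.87 for Wdr17, 4.29 for Gm42397 and 4.38 for Slc27a2, and it was -5.60 for Ebf1, -4.23 for Ppp1r13b and -3.77 for Fbxl7. For Negr1 and Lhfp the fitted values of -8.14 and -8.89 involve groups at 0 UMIs, depend on the prior count and are no measure of size. Without the mixed nuclei the values were 0.39 for Ghr, 1.53 for Trps1, 2.36 for Wdr17, -1.26 for Gm42397, 0.29 for Slc27a2 and -5.29 for Ppp1r13b (edgeR adjusted p = 0.146 for the last), and edgeR called 0 of 3114 genes, 162 at an unadjusted p under 0.05. No share of members stood out as an outlier in the 4 sets of 4 libraries tested, where chance marks about 1 set in 20.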

How the results depend on the processing

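Depth was limited to 164 nuclei. In simulated data with 1 spread for all genes edgeR called 61.6% of 4-fold and 11.8% of 2-fold changes between times in Ctrl. DESeq2 called 20.5% and 1.47% of them. The counts of called genes are given in the order time in Ctrl, time in cKOt, genotype at ZT4, genotype at ZT16, genotype averaged and difference of the time change, and were 39, 11, 31, 11, 1 and 51. They were 59, 28, 50, 27, 11 and 82 without a filter, 7, 3, 7, 3, 1 and 20 by DESeq2, and 0 (204 at an unadjusted p under 0.05), 22, 4, 11, 2 and 27 without doublets. With Aqp2 of at least 1 they were 5, 3, 19, 0 (436 at an unadjusted p under 0.05), 17 and 11, with equal nuclei 19, 10, 5, 26, 0 (158 at an unadjusted p under 0.05) and 50, without Aqp4 in the rule 27, 9, 27, 8, 16 and 17, and without mixed nuclei 1, 0, 3, 0, 2 and 0. DESeq2 was run on the members as selected only. TMM over all genes gave 17 at ZT16 and 2 averaged, and moved the median log2 value of all genes from 0.08 to 0.21 and from 0.08 to 0.19. RLE factors and biotypes tested apart kept the 6 counts within 1.5 times. Against connecting tubule nuclei the count of 683 was 1201 without mixed nuclei and 1801 without Aqp4 in the rule, and against medullary nuclei that of 1278 was 2284 with Aqp2 of at least 1. The cause of these moves was not tested.

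With 1 library left out the counts ran from 6 to 44, 5 to 14, 10 to 44, 3 to 19, 0 to 5 and 18 to 56, from 528 to 715 against connecting tubule and from 1109 to 1225 against medullary nuclei. The lowest came without the first Ctrl ZT4 replicate (6 for time in Ctrl), the first cKOt ZT16 replicate (5 for time in cKOt and 18 for the difference), either Ctrl ZT4 replicate (10 at ZT4 and 0 averaged) and the second cKOt ZT16 replicate (3 at ZT16). Counts also moved by over 1.5 times without the second Ctrl ZT4 replicate (13, 7, 7 and 23 for time in Ctrl, time in cKOt, ZT16 and the difference), the first (28 for the difference), the second Ctrl ZT16 replicate (13 for time in Ctrl), either cKOt ZT4 replicate (6 and 6 for time in cKOt, 14 and 13 at ZT4), either Ctrl ZT16 replicate (5 and 5 at ZT16), the first Ctrl ZT16 replicate (5 averaged and 32 for the difference), either cKOt ZT4 replicate (3 and 2 averaged), either cKOt ZT16 replicate (5 and 2 averaged), the first cKOt ZT4 replicate (19 at ZT16) and the first cKOt ZT16 replicate (7 at ZT16). The difference in the share of members ran from 0.0640 to 0.108 points between genotypes and from -0.0766 to -0.0204 points between times, and it did not pass without doublets (exact permutation p = 0.0571), with Aqp2 of at least 1 (p = 0.343) or among nuclei thinned to 2000 UMIs (p = 0.514).

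Same-numbered replicates deviated together by correlations of 0.0111 to 0.0758 over 4085 genes, so the numbers were not taken to pair the mice. With the replicate block the counts were 47, 14, 46, 18, 6 and 61. Of called values between groups, the sign turned without mixed nuclei for Ghr with time in Ctrl (0.45) and for Gm42397 at ZT4 (1.45) and in the difference (-1.26), and with Aqp2 of at least 1 for Negr1 in the difference (0.23). Over the genes named between groups and all alternatives, 597 of 837 values of called genes kept the call, 236 lost it and 4 turned. Of 1501 values of genes not called, 11 gained a call and 129 turned sign, 11 of the latter without mixed nuclei. Of 1082 values of genes named against the neighbours, 8 lost a call, 11 gained one, and 5 turned, all with Aqp2 of at least 1 and against connecting tubule nuclei: Slc4a9 (0.23), Slc26a4 (0.12), Atp6v0d2 (0.16), Tmem45b (-0.0576) and Hsd11b2 (-0.53).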

Other observations

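Under both wider rules, with Aqp2 of at least 1 (352 nuclei) and with Aqp4 left out (351 nuclei, chosen after the data were seen), 6 genes were called between genotypes averaged over time. These nuclei include the members, so the values are no independent support. Npas2 was higher in cKOt by 2.57 (SE 0.29, edgeR adjusted p = 0.000458) and 2.92 (SE 0.32, adjusted p = 7.3e-06) on the log2 scale under the first and the second rule. Arntl was higher by 1.58 (SE 0.29, adjusted p = 0.0419) and 1.97 (SE 0.29, adjusted p = 0.0009). Npnt, which encodes the matrix protein nephronectin, was higher by 0.96 (SE 0.17, adjusted p = 0.0367) and 0.79 (SE 0.15, adjusted p = 0.00911), Plppr1 by 1.43 (SE 0.27, adjusted p = 0.0418) and 1.24 (SE 0.24, adjusted p = 0.0126), and Gm43305 by 1.31 (SE 0.25, adjusted p = 0.0434) and 1.92 (SE 0.22, adjusted p = 1.46e-05). Ces1d, a carboxylesterase gene, was lower (-3.15, SE 0.61, adjusted p = 0.0434, and -3.23, SE 0.64, adjusted p = 0.0157).

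With Aqp4 left out of the rule, clock genes were called at ZT4 in both directions. Npas2 (3.93, SE 0.51), Cry1 (3.71, SE 0.80) and Arntl (3.24, SE 0.48) were higher in cKOt and Nr1d2 was lower (-2.96, SE 0.60), with edgeR adjusted p from 0.000167 to 0.0274. In Ctrl, Arntl was higher (2.94, SE 0.49, adjusted p = 0.00195) and Nr1d2 lower (-4.0, SE 0.71, adjusted p = 0.0033) at ZT16. With Aqp2 of at least 1, Npas2 (3.04, SE 0.46) and Arntl (2.41, SE 0.46) were the clock genes called at ZT4.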
